A study of Mus musculus with 20 samples.

Results

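Sleep fragmentation, the repeated interruption of sleep that accompanies obstructive sleep apnea, was set against undisturbed control in 4 tissues of the mouse. The comparison holds 8 of the 20 arrays of the series, chosen by their titles. There are 4 arrays from mice with sleep fragmentation, 1 each of brain, heart, lung and skeletal muscle, and 4 arrays of the same tissues from control mice that had neither hypoxia nor sleep fragmentation. All 8 came from C57BL-6J mice, a common inbred laboratory strain, at 20 weeks of age. The labels do not say how sleep was broken, for how long, at what hour tissue was taken, or whether an array holds 1 animal or a pool. A p-value or SE below, with tissue as the pairing block, rests on how much the difference varied between the tissues. The fit draws the variation of each probe set towards a value common to all probe sets tested. The former had 3 degrees of freedom and the common value 3.86. Such a p-value does not measure the spread between animals. The tissues of a side may come from the same animals, so the 4 pairs may not be independent. The other 12 arrays hold hypoxia in the same tissues or subcutaneous adipose tissue and enter only where they are named.

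Broken sleep is known as a stressor that can raise the adrenal glucocorticoid hormone, corticosterone in the mouse. This steroid diffuses into most cells, binds the glucocorticoid receptor, and carries it into the nucleus, where the receptor switches a set of target genes on or off. Among the targets are Fkbp5, a co-chaperone that lowers the receptor's own affinity for hormone, Ddit4, an inhibitor of the growth kinase complex mTORC1, and the clock gene Per1. Sleep timing and the circadian clock are also linked, so clock genes and the immediate early genes that mark recent cell activity are the other groups to which sleep experiments commonly turn.

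Expression was read as 1 intensity per probe set and array, quantile normalized over the 8 arrays. Intensities under 87.1 were treated as low, and that value was added to each intensity before log2, which shrinks the differences of dim genes. A log2 difference below is always sleep fragmentation minus control. The median deposited intensity was 383 to 408 on the 4 fragmentation arrays and 349 to 411 on the 4 control arrays. Gapdh control probe sets were read as a check of RNA integrity, by the 3' signal over the 5' signal. With fragmentation this quotient was 1.09 in brain, 1.15 in heart, 0.915 in lung and 0.264 in muscle. On the control arrays of the same tissues it was 0.873, 0.443, 0.833 and 0.0261. That quotient was thus higher on the fragmentation array in every tissue, with the widest gaps in muscle and heart. The same quotient of Actb was 0.662, 1.18, 0.0635 and 1.52 on the fragmentation arrays and 0.683, 0.964, 0.0288 and 1.25 on the control arrays, so it was lower with fragmentation in brain and its widest gap was in lung. In muscle the Gapdh 5' signal was alike, 7910 with fragmentation and 7930 in control, while the 3' signal was 2090 and 207. In lung the Actb 3' signal was 677 with fragmentation and 228 in control, beside 5' signals of 10700 and 7930. These low quotients thus come from dim 3' probe sets, so RNA integrity cannot be read from them. The part of either quotient in the results below was not tested.

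Each array was bright for a gene that defines its label, though not for every such gene. Snap25, a synaptic vesicle fusion protein, read 14300 on the fragmentation brain array and 14000 on the control brain array, and at most 34.2 on any other array. Tnnt2, cardiac troponin T, read 15900 in both hearts, Ager, a receptor of alveolar lung cells, 8310 in the fragmentation lung and 6340 in the control lung, and Tnnt3, fast troponin T, 14800 in the fragmentation muscle and 15700 in the control muscle. All lung genes, 5 of 9 measured, summed to 23330 in the fragmentation lung and 10810 in the control lung, but to 13220 in the control brain. Some arrays also carried genes of tissues that their labels do not name. The heart genes Myh6 and Nppa read 1830 and 1490 in the fragmentation lung and 2400 and 4470 in the control lung.

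The muscle and brain pairs stood furthest apart in this way. The fragmentation muscle array held Gpx5 at 10600 and Adam7 at 8850, both made in the epididymis, against 283 and 199 on the control muscle array. It also held the fat cell hormones Adipoq at 6250 and Retn at 2050, against 459 and 59.8. The control muscle array in turn held genes of the gut lining and its Paneth cells, with Fabp2 at 3400, Apoa1 at 4310, Defa35 at 6170 and Reg3b at 10600, where the fragmentation muscle array read 18.8, 125, 146 and 1370. The summed intensity of all 14 small intestine genes was 4651 in the fragmentation muscle and 42770 in the control muscle, and 2616 to 6809 on the other fragmentation arrays and 2711 to 5972 on the other control arrays. That of all 6 epididymis genes was 20520 in the fragmentation muscle and 1160 in the control muscle, and at most 1320 elsewhere. These lists were written after the values had been seen.

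In brain the same kind of difference concerned airway, muscle and pituitary genes. Scgb1a1, the secretory protein of airway club cells, read 455 on the fragmentation brain array and 11800 on the control brain array, while the lungs, where it belongs, read 7690 with fragmentation and 256 in the control. Acta1, the actin of skeletal muscle, read 321 in the fragmentation brain and 6890 in the control brain. On the muscle arrays it read only 461 with fragmentation and 1180 in control, and on the heart arrays 4230 and 5550. The muscle genes Myh1 and Tnnt3 read 16.4 and 68.2 in the fragmentation brain, and 576 and 573 in the control brain. Gh, the growth hormone of the pituitary, read 11600 in the fragmentation brain and 1430 in the control brain. The muscle and brain differences below therefore stand beside differences in which tissue genes the arrays hold. The glucocorticoid list as a whole, the genes of equal sign in all tissues and some other lists are also given without these 2 pairs. In bulk tissue, fewer cells of a type and less RNA per cell cannot be told apart.

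**Figure D1:**
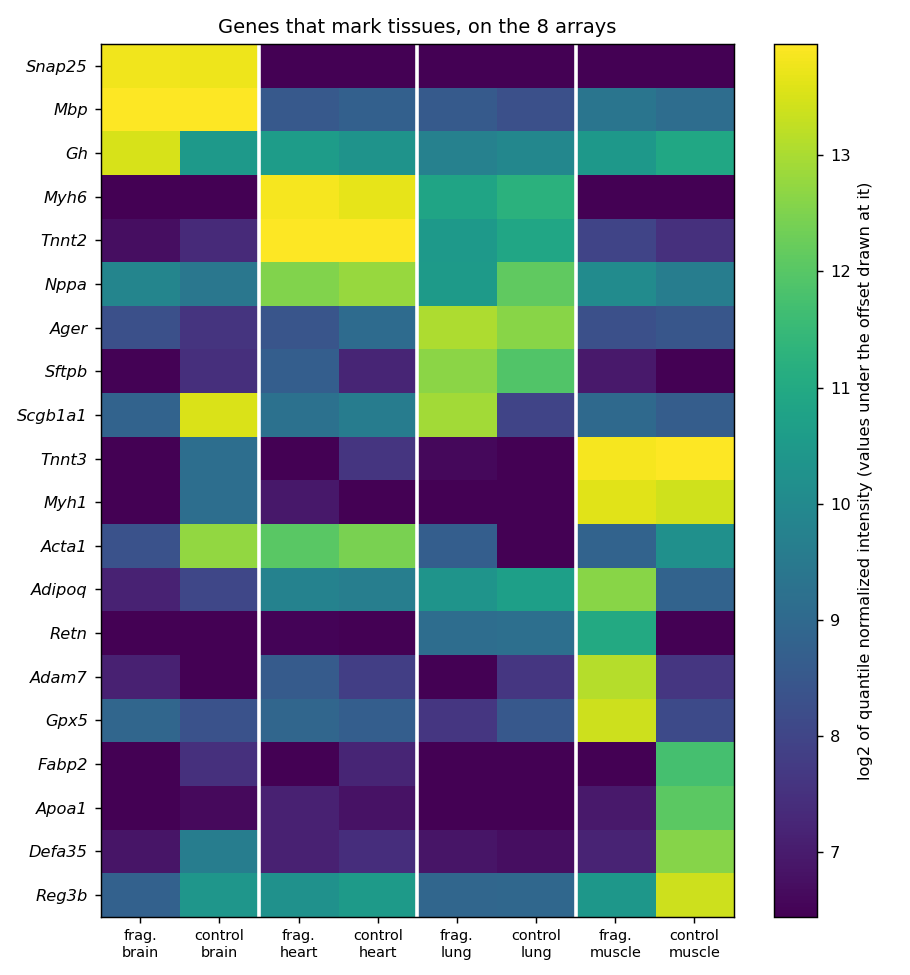
Heat map of quantile normalized intensity (log2, colour) of 20 genes that mark tissues on the 8 arrays, with the fragmentation array left of the control array in each tissue. Defining genes such as Snap25, Tnnt2, Ager and Tnnt3 are bright on the arrays labelled for them, while Adam7 and Gpx5 are bright only in the fragmentation muscle, Fabp2 and Apoa1 only in the control muscle, and Scgb1a1 in the control brain and the fragmentation lung.

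The first comparison asked which genes differed between fragmentation and control in the same way in brain, heart, lung and muscle. No gene passed. The gene with the smallest p, the phenol sulfotransferase Sult1a1, was higher in each tissue, and the basement membrane collagen Col15a1 was lower in each. Each tissue pair was fitted as a block in limma, and 0 of 7453 probe sets (0%) had a Benjamini-Hochberg adjusted p under 0.05, the smallest being 0.868. At an unadjusted p under 0.05 in limma there were 380 probe sets (5.1%), close to the 0.05 that chance alone would give. Of these, 175 (2.35%) were higher and 205 (2.75%) lower with fragmentation. Of all tested probe sets, 481 (6.45%) were higher in all 4 tissues and 589 (7.9%) lower in all 4.

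Sult1a1, which attaches sulfate to phenols and catechols, had the smallest p of all. It read 123 in brain, 534 in heart, 777 in lung and 301 in muscle with fragmentation, against 24.9, 248, 373 and 104 on the control arrays of those tissues. The fragmentation array was the higher one in 4 of 4 pairs, though the 4 fragmentation values and the 4 control values overlap, since the tissues differ in level. The log2 difference was 0.93 ± 0.13 (SE of the fit, n = 4 pairs; limma unadjusted p = 0.000184, adjusted p = 0.868), with 0.91, 0.89, 0.91 and 1.02 in the 4 tissues. The likeness of these 4 values depends on the added 87.1, since the brain control value lies under it, and the difference over the 4 pairs was 1.5 with nothing added and 0.52 with 4 times the value. Another, dimmer probe set of Sult1a1 gave -0.99 in brain, -0.27 in heart, 0.11 in lung and 0.86 in muscle.

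Next stand the other genes higher in all 4 tissues with the smallest unadjusted p, 12 with Sult1a1. None passed after adjustment. Nmur1, a receptor of the neuropeptide neuromedin U, read 341, 521, 597 and 1230 in brain, heart, lung and muscle with fragmentation, against 122, 276, 345 and 779 in control (log2 difference 0.76 ± 0.14, unadjusted p = 0.0011 in limma). Apod, a lipid-binding apolipoprotein, read 7450, 211, 89.1 and 599 with fragmentation, against 4390, 48.6, 51.8 and 262 in control (0.80 ± 0.17). Ttr, the thyroxine carrier that the choroid plexus makes in brain, read 3800, 281, 248 and 371 with fragmentation, against 1920, 113, 188 and 76.8 in control (0.90 ± 0.21). That the fragmentation array was higher in every pair was a condition of the choice of these genes. The size differed between tissues, from 0.28 in lung to 1.48 in muscle for Ttr.

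The other genes on that side were Degs2, which desaturates and hydroxylates sphingolipids (0.99 ± 0.22), Slc10a6, a transporter of sulfated steroids (0.95 ± 0.25), and Psd, an exchange factor for the small GTPase ARF6 (0.82 ± 0.18). Pvalb, a calcium buffer of fast muscle and interneurons, stood at 0.75 ± 0.18. Its probe set read 462 in the fragmentation muscle and 213 in the control muscle, but 3870 and 3090 in the lungs. The other Pvalb probe set read 12200 in the fragmentation muscle and 14200 in the control muscle, and stood at -0.04 ± 0.27. Bdkrb1, a bradykinin receptor, stood at 0.73 ± 0.17. Serpinb9e, a protease inhibitor (0.71 ± 0.16), Pip5k1a, a phosphoinositide kinase (0.62 ± 0.15), and Hs3st3a1, which sulfates heparan chains (0.52 ± 0.14), completed the 12. Unadjusted p ran from 0.000184 to 0.00752 over these 12 genes.

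On the lower side, Col15a1, a collagen of basement membranes, read 138 in brain, 1010 in heart, 272 in lung and 283 in muscle with fragmentation, against 329, 2710, 438 and 640 in control. Its log2 difference was -0.94 ± 0.17 (unadjusted p = 0.000857 in limma), and -0.89, -1.36, -0.55 and -0.97 by tissue. Lxn, a carboxypeptidase inhibitor, read 581, 41.4, 483 and 12.9 with fragmentation, against 1050, 141, 735 and 100 in control (-0.76 ± 0.14), with its fragmentation values in heart and muscle under 87.1. Both genes were lower on the fragmentation array in 4 of 4 pairs, which was a condition of their choice.

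Fos, an immediate early transcription factor, read 477, 457, 3700 and 610 in brain, heart, lung and muscle with fragmentation, against 1100, 869, 5190 and 896 in control. The log2 difference was -0.72 ± 0.16 (unadjusted p = 0.00285 in limma), though a dimmer probe set of Fos gave 0.19, -0.44, 0.21 and 0.78. The other lower genes were Vtn, an adhesion protein of plasma and pericytes (-0.88 ± 0.22), Arpc4, a subunit of the actin-branching complex (-0.73 ± 0.18), and Avil, an actin-binding protein (-0.72 ± 0.19). Stk10, a lymphocyte kinase, stood at -0.70 ± 0.18, Cd7, a lymphocyte surface protein, at -0.69 ± 0.17, and Vamp3, a vesicle fusion protein, at -0.61 ± 0.15. Afg3l1, a mitochondrial protease subunit (-0.61 ± 0.16), Acot7, an acyl-CoA thioesterase (-0.58 ± 0.15), and Sprr2d, an epithelial envelope protein (-0.58 ± 0.15), completed the set.

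Without the brain and muscle pairs, 21 of these 24 genes had a value, since the other 3 no longer passed the filter on low intensity. Of the 21, 11 had an unadjusted p under 0.05 in limma, against 390 of all 7453 probe sets. The 24 had been chosen in a fit that held the same heart and lung arrays, which favours such a count. Sult1a1 stood at 0.89 and Col15a1 at -0.94 without the 2 pairs. The difference of Slc10a6 was 0.41, that of Degs2 0.59, that of Serpinb9e 0.45, that of Bdkrb1 0.45, that of Cd7 -0.41 and that of Afg3l1 -0.36, each less than in all 4 pairs by over 1.5 times.

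**Figure D2:**
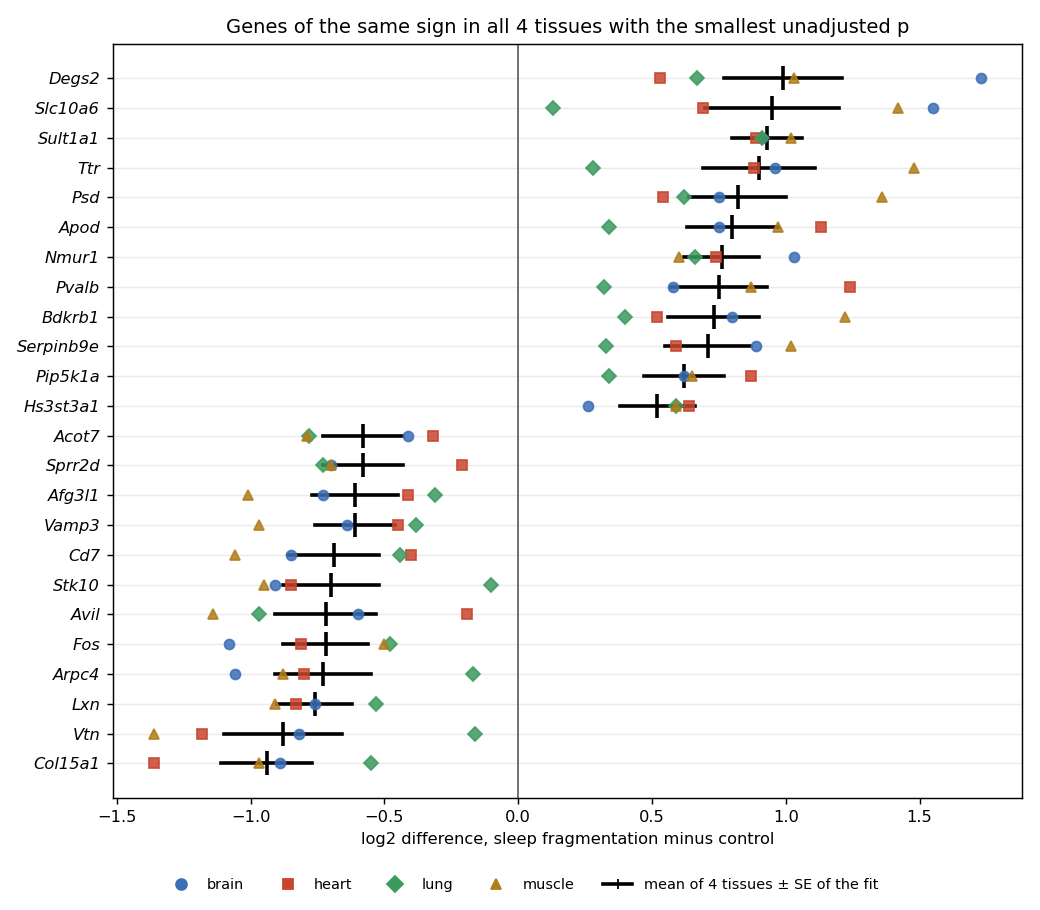
Log2 difference (sleep fragmentation minus control) in each tissue for the 12 genes higher and the 12 lower in all 4 tissues with the smallest unadjusted p; black bars show the mean over the 4 tissues ± SE of the fit. The same sign in all 4 tissues was a condition of the choice. Sult1a1 spans 0.89 to 1.02, while Ttr spans 0.28 to 1.48.

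Genes known to respond to glucocorticoids were mostly higher with fragmentation, in 16 of 24 cases in brain, 19 in heart, 19 in lung and 18 in muscle. Differences between tissues, with 1 array on each side, were not tested. Of the list's 31 genes 27 were measured and 24 tested, and 22 of the 24 had a positive difference while 2, Dusp1 and Pdk4, had a negative one. At an unadjusted p under 0.05 there were 11 higher and 1 lower, 50.0% of the 24 against 5.1% of all probe sets, and none passed after adjustment. The median log2 difference was 0.37, against -0.01 over all genes tested. By tissue the median was 0.12 in brain, 0.51 in heart, 0.51 in lung and 0.29 in muscle. The list, like the other pathway lists, was chosen with earlier results of these data known, so its counts are not an independent test. It holds Fkbp5, Ddit4 and Sult1a1, which were chosen with these data known. The 21 tested members besides them gave a median of 0.32, with 19 higher and 9 at an unadjusted p under 0.05.

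The count of 12 rested on the heart and lung pairs. It was 6 of 24 without the heart pair and 4 of 23 without the lung pair, against 11 of 25 without brain and 8 of 25 without muscle. Without the brain and muscle pairs, which stood furthest apart in genes of other tissues, it was 12 of 26, against 390 of all 7453 probe sets. There 22 were higher and the median was 0.43. That fit was chosen after seeing the data and left 1 residual degree of freedom. The lung pair it keeps also held a heart gene unequally, with Nppa at 1490 with fragmentation and 4470 in control.

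Fkbp5 read 961 in brain, 2020 in heart, 1570 in lung and 4000 in muscle with fragmentation, against 768, 659, 861 and 2670 in control. The fragmentation array was higher in 4 of 4 pairs, least in brain (0.29) and most in heart (1.5). The log2 difference was 0.79 ± 0.21 (unadjusted p = 0.00766, adjusted p = 0.868 in limma).

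Ddit4 read 1190, 1850, 1790 and 927 in brain, heart, lung and muscle with fragmentation, against 1340, 718, 643 and 48.2 in control. It was higher with fragmentation in heart (1.26), lung (1.36) and muscle (2.91), and differed by -0.15 in brain. The muscle control value is under 87.1, so that difference depends on the value added before log2. Over the 4 pairs the log2 difference was 1.34 ± 0.43 (unadjusted p = 0.0176 in limma), and 0.82 without the muscle pair.

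The metal-binding metallothioneins Mt1 and Mt2 were among the brightest members. Mt1 read 7070, 5810, 4050 and 1610 with fragmentation, against 5380, 4380, 2570 and 438 in control (0.78 ± 0.24). Mt2 read 11800, 6690, 4850 and 1700 with fragmentation, against 13500, 4010, 2460 and 983 in control (0.56 ± 0.21). Mt1 was thus higher in all 4 tissues, and Mt2 in all but brain.

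Nfkbia, the inhibitor that holds NF-kappaB in the cytoplasm, read 1430, 2530, 5110 and 1950 with fragmentation, against 938, 1760, 3050 and 1600 in control (0.52 ± 0.14, unadjusted p = 0.00831 in limma). Zbtb16, a zinc finger repressor, stood at 0.48 ± 0.16, with 0.31 in brain, 0.74 in heart, 0.68 in lung and 0.18 in muscle. Cebpd, a transcription factor of fat and immune cells, stood at 0.56 ± 0.22, with -0.03 in brain and 1.32 in muscle, and Gadd45g, a growth arrest protein, at 0.40 ± 0.16. Angptl4, which inhibits lipoprotein lipase, stood at 0.38 ± 0.15, with other probe sets of opposite sign. Hsd11b1, which regenerates active hormone inside cells, stood at 0.39 ± 0.20 (unadjusted p = 0.092 in limma), with 0.59 in heart, 0.94 in muscle and 0.01 in both brain and lung.

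A few members stood out in brain alone or turned between tissues. Sgk1, a kinase of ion transport, read 3730 in the fragmentation brain and 1660 in the control brain (1.13), but differed by -0.34 in lung. Glul, glutamine synthetase, stood at 1.29 in brain and -1.02 in muscle, and Irs2, an insulin receptor substrate, at 1.53 in brain and -1.13 in muscle. Dusp1, the phosphatase that silences stress kinases, was the 1 member lower in all 4 tissues, reading 1410, 5190, 10000 and 2830 with fragmentation against 2130, 6690, 11200 and 4400 in control (-0.43 ± 0.14, unadjusted p = 0.0214 in limma).

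The remaining members had an unadjusted p above 0.05 in limma. Cdkn1a, a cell cycle inhibitor, stood at 0.31 ± 0.21, Errfi1, an inhibitor of epidermal growth factor signalling, at 0.26 ± 0.17, and Lcn2, an iron-sequestering protein, at 0.25 ± 0.13. Klf9 and Cebpb, both transcription factors, stood at 0.17 ± 0.15 and 0.16 ± 0.14. Pnmt, which makes adrenaline (0.11 ± 0.24), S100a8, a neutrophil protein (0.02 ± 0.20), and Pdk4, the brake on pyruvate oxidation (-0.19 ± 0.18), were lowest but for Dusp1. The receptor itself, Nr3c1, was too dim to be tested, as were Tsc22d3, a mediator of hormone action, and the liver enzyme gene Tat. Nr3c1 read 339, 427, 270 and 386 with fragmentation, against 176, 473, 490 and 457 in control. Tsc22d3 differed by -0.06 in brain, 0.55 in heart, 0.25 in lung and 0.69 in muscle.

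**Figure D3:**
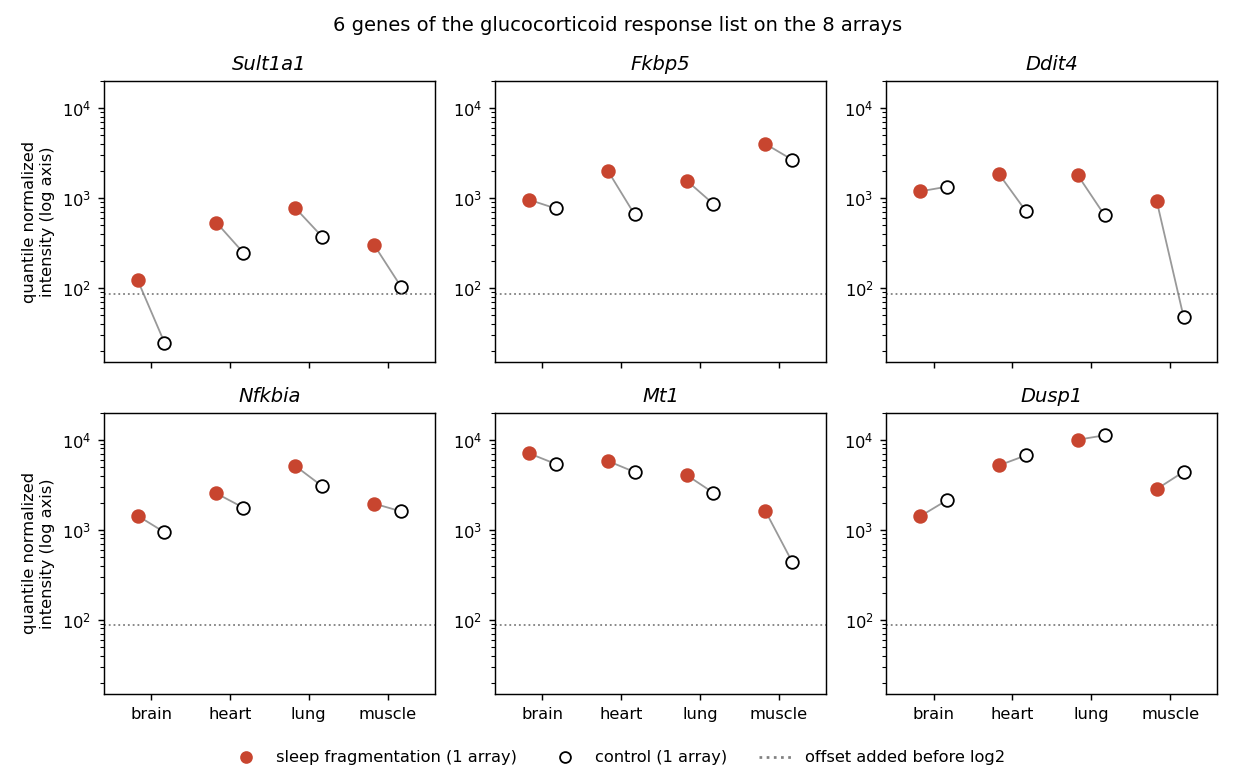
Quantile normalized intensity (log axis) of 6 members of the glucocorticoid response list on each array, with sleep fragmentation (filled) left of control (open) in each tissue; the dotted line marks the 87.1 added before log2. Sult1a1, Fkbp5, Nfkbia and Mt1 are higher on the fragmentation array in every tissue, Ddit4 in all but brain, and Dusp1 is lower in every tissue.

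**Figure D4:**
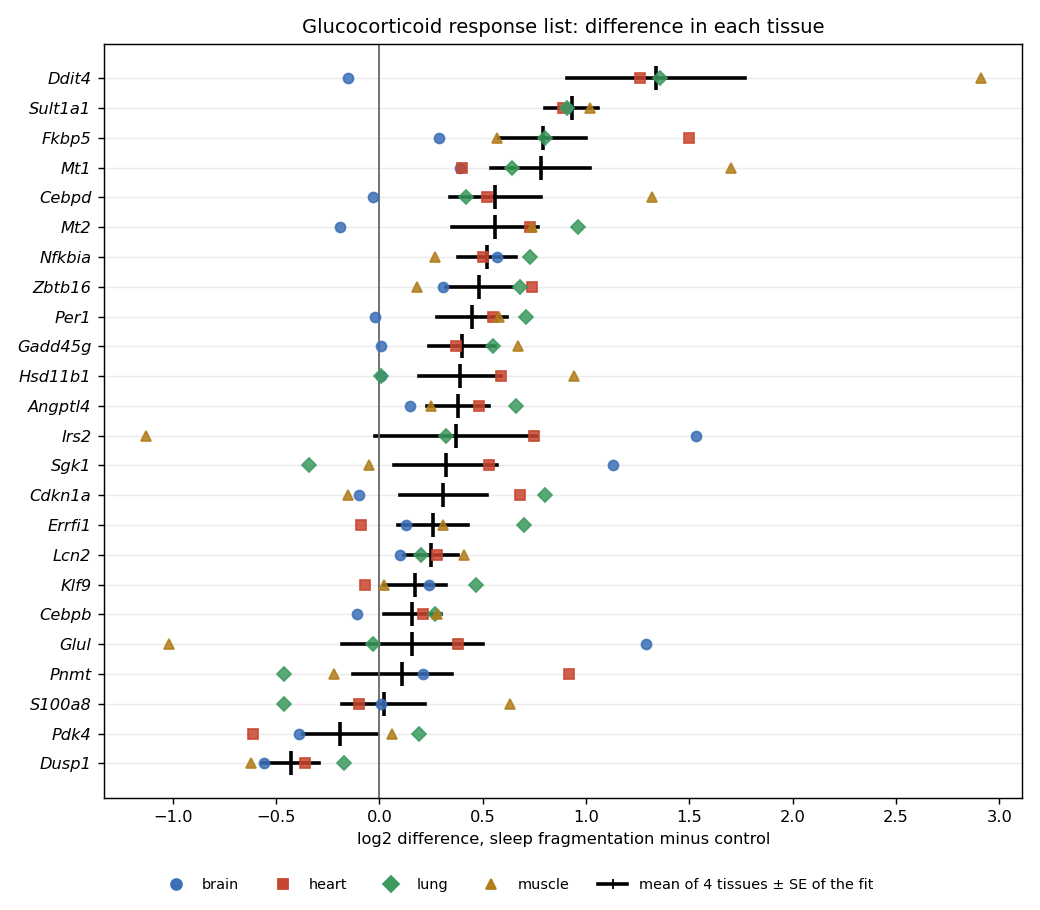
Log2 difference (sleep fragmentation minus control) in each tissue for the 24 tested members of the glucocorticoid response list, ordered by the mean over tissues, which black bars show ± SE of the fit. The brain points lie at or left of the mean for Ddit4, Fkbp5, Mt1, Mt2 and Per1, and right of it for Irs2, Sgk1 and Glul.

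Promoter sequence was read for the list from RefSeq, build GRCm38.p6, as the 250 bases before each gene's start. The core of the receptor's binding element, ACANNNTGT on either strand, which reads the same on both, was found in 4 of the 20 list genes with a promoter entry (Glul, Lcn2, Mt1 and Sgk1), and in 6.76% of 27025 genes. The clock factors' E-box, CACGTG, also the same on both strands, was found in 6 of the 20 (Dusp1, Fkbp5, Gadd45g, Irs2, Per1 and Sgk1), in 3 of 13 clock genes (Cry1, Per1 and Tef) and in 6.86% of all genes. The Sgk1 window below holds both motifs, which do not overlap there. Promoters are shown for Mt1 and Sgk1, which hold the receptor core, and for Fkbp5 and Per1, which hold the E-box, 5′ to 3′ on the gene's strand with the motif in capitals.
Mt1, chr8:94178839-94179088, plus strand, receptor core: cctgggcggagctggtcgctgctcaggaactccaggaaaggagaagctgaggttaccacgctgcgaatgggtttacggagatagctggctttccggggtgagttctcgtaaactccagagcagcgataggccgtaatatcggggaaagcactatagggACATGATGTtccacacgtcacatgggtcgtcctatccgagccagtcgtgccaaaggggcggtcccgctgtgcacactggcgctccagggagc
Sgk1, chr10:21993640-21993889, plus strand, receptor core: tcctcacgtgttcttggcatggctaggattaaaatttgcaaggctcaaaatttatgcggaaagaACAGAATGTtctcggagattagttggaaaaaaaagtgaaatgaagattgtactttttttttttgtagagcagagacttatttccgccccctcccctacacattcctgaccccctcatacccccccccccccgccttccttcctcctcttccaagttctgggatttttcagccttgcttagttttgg
Fkbp5, chr17:28486150-28486399, minus strand, E-box: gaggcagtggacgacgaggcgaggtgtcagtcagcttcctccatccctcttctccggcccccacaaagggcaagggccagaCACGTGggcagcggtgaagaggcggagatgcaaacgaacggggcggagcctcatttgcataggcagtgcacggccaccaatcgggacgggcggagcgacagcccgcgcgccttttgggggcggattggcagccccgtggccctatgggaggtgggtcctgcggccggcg
Per1, chr11:69098699-69098948, plus strand, E-box: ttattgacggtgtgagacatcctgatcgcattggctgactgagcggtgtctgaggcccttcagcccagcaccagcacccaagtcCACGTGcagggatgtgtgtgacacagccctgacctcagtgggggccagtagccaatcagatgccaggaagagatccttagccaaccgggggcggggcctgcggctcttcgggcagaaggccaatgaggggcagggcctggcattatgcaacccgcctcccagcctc
Counted from the start of the gene, the motif begins at -92 in Mt1, -186 in Sgk1, -169 in Fkbp5 and -166 in Per1. A match is a description of these letters, and the window holds only a small part of the sequence that can bind the receptor.

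The circadian clock runs on a loop in which Clock and Arntl switch on the Per and Cry repressors and output factors such as Dbp. As a group the clock genes leaned higher with fragmentation by little. Of 22 listed genes 17 were measured and 15 tested, 10 were higher and 5 lower, and the median was 0.11 (0.27 in brain, -0.07 in heart, 0.12 in lung and -0.28 in muscle). Per1 and Dbp had an unadjusted p under 0.05 in limma, 13.3% of the 15 against 5.1% of all.

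Per1, a repressor of the loop, read 734 in brain, 425 in heart, 2010 in lung and 1020 in muscle with fragmentation, against 748, 262, 1190 and 657 in control (0.45 ± 0.17). It differed by -0.02 in brain and was higher in the other tissues by 0.55 to 0.71. Dbp, an output factor of the clock, read 490, 371, 933 and 653 with fragmentation, against 398, 210, 690 and 580 in control (0.35 ± 0.14), and was higher in all 4 pairs. Arntl, the activator opposite to the Per genes in phase, was lower in all 4, by -0.26, -0.07, -0.05 and -0.47 (-0.21 ± 0.14, unadjusted p = 0.177 in limma).

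The other clock genes had an unadjusted p above 0.05 in limma. Per3 stood at 0.18 ± 0.13 and was higher in all 4 tissues, Tef, another output factor, at 0.27 ± 0.23 and Cry2, a repressor, at 0.17 ± 0.17. The receptors Rora, Nr1d2 and Nr1d1, which act on Arntl, stood at 0.29 ± 0.21, 0.10 ± 0.13 and -0.08 ± 0.20. Nfil3, a repressor of output genes, was higher in brain (1.44) and lung (1.03) and lower in heart (-0.57) and muscle (-0.32), with another probe set of opposite mean sign. Bhlhe40, which represses Per1, stood at -0.30 ± 0.18, Clock at -0.12 ± 0.21, Cry1 at -0.08 ± 0.21, and the kinases Csnk1d and Csnk1e at 0.11 ± 0.15 and 0.11 ± 0.22. Per2 and Npas2 were too dim to be tested, and Per2 differed by 0.15, 0.53, 0.82 and -0.12 by tissue.

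Immediate early genes are transcribed within minutes of a stimulus and also respond to the handling of tissue. They did not share a direction: 8 of 19 tested were higher and 11 lower, with a median of -0.02. At an unadjusted p under 0.05 were Fos, Dusp1 and Nr4a1 on the lower side and Fosb on the higher, 21.1% of the 19 against 5.1% of all probe sets. The median was -0.22 with the filter at the 70th percentile and -0.14 without the muscle pair. Nr4a1, an orphan nuclear receptor, read 775, 927, 1240 and 2750 in brain, heart, lung and muscle with fragmentation, against 752, 1450, 1710 and 4050 in control (-0.39 ± 0.16). Fosb, a partner of Jun proteins, read 1890, 2100, 987 and 2920 with fragmentation, against 1250, 1850, 924 and 1290 in control (0.49 ± 0.20). Ier2 stood at -0.54 ± 0.25. Fos and Fosb thus differed in opposite directions in the same samples.

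Of 29 extracellular matrix genes tested 10 were higher and 19 lower. The median was -0.08, with -0.07 in brain, -0.34 in heart, -0.17 in lung and 0.07 in muscle, where 17 of 29 were higher. It was -0.03 without the heart pair, -0.03 without the lung pair and -0.24 without the brain and muscle pairs. There were 6 genes lower in all 4 tissues, against 7.9% of all probe sets, and 0 higher in all 4. At an unadjusted p under 0.05 in limma were 5, all lower, 17.2% against 5.1% of all probe sets. Besides Col15a1 these were Col3a1, a fibrillar collagen (-0.76 ± 0.25), Sparc, a collagen-binding protein (-0.53 ± 0.19), Col4a1, the basement membrane collagen (-0.50 ± 0.18), and Lum, a collagen-bound proteoglycan (-0.39 ± 0.15). Col3a1 read 151, 619, 1150 and 957 in brain, heart, lung and muscle with fragmentation, against 196, 2060, 2240 and 1180 in control. Its difference was widest in heart (-1.61) and small in brain (-0.25) and muscle (-0.28).

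Chaperones, which fold proteins under stress, were higher in 3 of 16 cases and lower in 13, with a median of -0.08 and 3 at an unadjusted p under 0.05, 18.8% against 5.1% of all probe sets. These 3 were Serpinh1, the chaperone of collagen (-0.53 ± 0.17), Hspe1, the mitochondrial chaperonin partner (-0.44 ± 0.15), and Cryab, a small heat shock protein of muscle (-0.32 ± 0.13, with another probe set of opposite sign). Serpinh1 read 326, 2030, 3070 and 830 with fragmentation, against 481, 4100, 4370 and 946 in control, and was lower in 4 of 4 pairs. Endoplasmic reticulum stress genes were higher in 9 of 18 cases (median 0.00) with none at an unadjusted p under 0.05 in limma, the nearest being Asns, asparagine synthetase (0.32 ± 0.14), and Pdia3, a disulfide isomerase (-0.38 ± 0.17).

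Because the series concerns glucose metabolism, the pathways of fuel use were set side by side, and their differences were small. Glycolysis genes were higher in 7 of 16 cases (median -0.10), those of the tricarboxylic acid cycle in 6 of 18 (-0.15), and those of the respiratory chain in 13 of 52 (-0.09), against 2733 of all 5652 genes tested. Without the brain and muscle pairs the tricarboxylic acid cycle median was -0.03, that of the respiratory chain -0.05 and that of glycolysis -0.05. Of these pathways, Idh3g, a subunit of isocitrate dehydrogenase, alone had an unadjusted p under 0.05, reading 2950, 8250, 1440 and 5350 in brain, heart, lung and muscle with fragmentation against 4880, 11800, 2020 and 5720 in control (-0.44 ± 0.15, with another probe set of opposite sign). In heart the respiratory chain genes went the other way, 31 of 52 higher with a median of 0.05. There Cox6a2, the muscle form of a cytochrome oxidase subunit, stood at 2.28 and Uqcrq, a subunit of complex III, at 1.75.

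Fatty acid oxidation genes were higher in 10 of 20 cases (median 0.01), with Acot1, a thioesterase of long-chain acyl-CoA, at an unadjusted p under 0.05. It read 405, 2240, 1660 and 592 with fragmentation, against 434, 1100, 912 and 440 in control (0.51 ± 0.20). Genes of fatty acid and triglyceride synthesis were higher in muscle in 12 of 13 cases (median 0.70) but lower in brain (-0.36) and heart (-0.31) at the median. Their median over the 4 tissues was 0.06, and -0.14 without the muscle pair. Adipocyte genes on the same muscle arrays, 8 of 11 measured, summed to 27120 with fragmentation and 16030 in control, and their part in the muscle lipid genes was not tested. Scd1, the desaturase that makes oleate, read 8750 in the fragmentation muscle and 806 in the control muscle.

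Of the 9 cholesterol synthesis genes tested, 3 were higher (median -0.12, and -0.01 without the heart pair or with no filter). Mvk, mevalonate kinase, stood at 0.47 ± 0.15, with another probe set of opposite sign, and Idi1, an isomerase later in the pathway, at -0.41 ± 0.16, both at an unadjusted p under 0.05. Of 17 insulin signalling and FoxO target genes 9 were higher (median 0.04, and -0.09 without the lung pair), and Cited2, a FoxO target, stood at -0.49 ± 0.17 (unadjusted p = 0.0256 in limma). Akt2, the kinase of insulin action in muscle and fat, stood at -0.54 ± 0.25, and Pik3r1, a regulatory subunit of phosphoinositide 3-kinase, at 0.46 ± 0.21. Genes of muscle atrophy, proteasome and autophagy were higher in 11 of 28 cases (median -0.04), with 1 at an unadjusted p under 0.05: Gabarapl1, an autophagosome protein, at 0.59 ± 0.18 (0.20, 0.92, 0.33 and 0.92 by tissue).

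The hypoxia response list, which shares Ddit4 with the glucocorticoid list, was higher in 11 of 20 cases (median 0.03), and Ddit4 was its 1 member at an unadjusted p under 0.05. Antioxidant and glutathione genes were higher in 18 of 26 (median 0.07, and 0.00 without the brain and muscle pairs), with the metallothioneins Mt1 and Mt2 the 2 at that threshold. Inflammation genes were higher in 8 of 11 (median 0.14, but 0.02 without the brain pair and 0.06 without the heart pair, with Nfkbia at the threshold) and interferon response genes in 10 of 21 (median 0.00, with 0 at the threshold in limma). Cell cycle genes were higher in 8 of 12 (median 0.08, 0 at the threshold in limma), and Pcna, the replication clamp, stood at -0.63 ± 0.28. Ribosomal protein genes were higher in 13 of 20 (median 0.10), with Rpl41 at 0.85 ± 0.26.

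**Figure D5:**
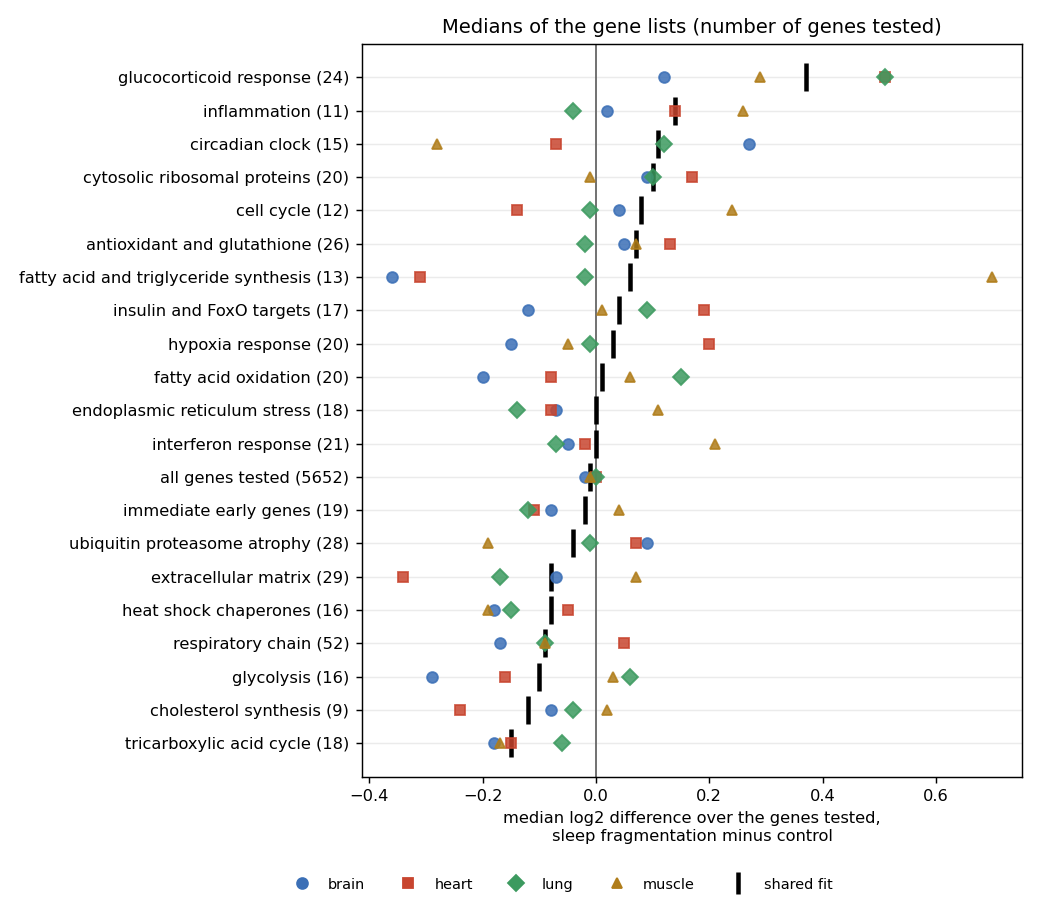
Median log2 difference (sleep fragmentation minus control) of 20 gene lists and of all genes tested, in each tissue (coloured points) and in the fit over the 4 tissues (black bars), with the number of genes tested in brackets. The glucocorticoid response list stands at 0.37, and every other list between -0.15 and 0.14.

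Within a tissue there is 1 array on each side and no test, so the count given is of probe sets at least 2-fold apart. In brain 144 (1.93%) were higher and 157 (2.11%) lower with fragmentation, in heart 154 (2.07%) and 154 (2.07%), in lung 72 (0.966%) and 52 (0.698%), and in muscle 301 (4.04%) and 297 (3.98%). The counts were lowest in lung and highest in muscle.

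In brain, the genes highest with fragmentation after Gh were Ift46, a protein of cilia (2040 with fragmentation against 256 in control, 2.63), Map2, the microtubule protein of dendrites (1850 against 258, 2.49), Ptms, parathymosin (2.18), and Usf1, a transcription factor that binds the E-box (2.15). Ift46 was higher in all 4 tissues, with 0.45, 0.55 and 1.05 in heart, lung and muscle, but its other probe set differed by 0.34 in brain and -0.20 in heart, and the other probe set of Usf1 by 0.19 in brain. The lowest genes in brain were Scgb1a1 (-4.45) and the muscle genes Acta1 (-4.10), Myh1, a fast myosin (-2.68), Atp2a1, the calcium pump of muscle (-2.44), and Mb, myoglobin (-2.31). Other probe sets gave -1.72 for Atp2a1 and -0.06 for Mb. The skeletal muscle list, 14 of 14 measured, summed to 7790 on the fragmentation brain array and 18460 on the control brain array.

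In heart, Rnf10, a ubiquitin ligase, read 1720 with fragmentation and 89.6 in control (3.36), and it was also higher in brain (1.40) and lung (1.82). Hba-a1, alpha globin, read 6150 with fragmentation and 634 in control (3.11), while Hbb-b2, beta globin, read 9860 with fragmentation and 12700 in control. The 2 chains of haemoglobin thus differed in opposite directions on the same arrays, as they did in lung, where Hba-a1 read 2170 with fragmentation and 627 in control and Hbb-b2 read 11900 with fragmentation and 15900 in control. Actc1, cardiac actin, read 8850 with fragmentation and 1060 in control (2.96), but its other probe set differed by -0.08. The unnamed transcript 1810009A15Rik (2.56) and Cox6a2 followed. On the lower side stood Fkbp8, a mitochondrial relative of Fkbp5 (117 with fragmentation against 1450 in control, -2.91), Plk3, a kinase of the stress response (-2.39), Wbp4, a splicing factor (-2.34), Cln8, a membrane protein of the endoplasmic reticulum (-2.12), and Mag, a myelin protein (-2.08, and 0.13 by another probe set), which is not chiefly a heart gene.

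In lung, after Scgb1a1 (4.50), the highest genes were Nomo1, an endoplasmic reticulum membrane protein (3020 with fragmentation against 375 in control, 2.75), Ly6e, an interferon-induced surface protein (1.86, with another probe set of opposite sign), Rnf10 (1.82) and Otub1, a deubiquitinase (1.76). The lowest were Ptdss2, which makes phosphatidylserine (133 with fragmentation against 691 in control, -1.82), Ctnna2, the neuronal alpha catenin (-1.69), Pip4k2c, a phosphoinositide kinase (-1.65), Prp2 (-1.63) and Matn2, a matrix protein (-1.61). Other probe sets in lung gave 0.28 for Otub1, 0.17 for Pip4k2c, 0.09 for Prp2, 0.00 for Matn2, and -0.01 and 0.03 for Ctnna2. Sftpc, a surfactant protein that normally is among the brightest lung genes, read 734 with fragmentation and 158 in control.

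In muscle, the 5 highest genes were Adam7 (4.97), Gpx5 (4.86), Retn (3.86), Adipoq (3.54) and Scd1 (3.31), and the 5 lowest Fabp2 (-5.04), Defa35 (-4.75), Apoa1 (-4.38), Defa23 (-3.52) and Tff3, a peptide of mucus cells (-3.26). None of the 10 is chiefly a gene of muscle fibres. Among those that are, Myh1 read 12500 with fragmentation and 11000 in control (0.18), and Tnnt3 differed by -0.09. The slow fibre genes Myh7, a myosin heavy chain, and Tnnc1, a troponin, were lower, at -1.48 (with another Myh7 probe set of opposite sign) and -1.57, and 6 of 7 slow fibre genes were lower in muscle.

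The differences of the 4 tissues had little in common. Across the 7453 probe sets, which are not independent replicates, the Pearson correlation between the differences of a pair of tissues ran from -0.018 (lung and muscle) to 0.064 (heart and lung), and the share with the same sign from 49.3% to 53.5%. No probe set was 2-fold higher in all 4 tissues or 2-fold lower in all 4. The genes 2-fold higher in 3 tissues were Ddit4, Mup5, Notch2, Plekhb2, Rnf10 and Slc27a1, and those 2-fold lower in 3 were Anpep and Fabp2, all named after their values were seen. Of these, Slc27a1, a fatty acid transporter, was lower in brain (-1.14) and higher in heart (1.01), lung (1.43) and muscle (1.15), as Notch2 was lower in heart (-1.28). There were 74 genes 2-fold higher in 1 tissue and 2-fold lower in another.

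The hypoxia arrays of the same 4 tissues allow the glucocorticoid genes to be set beside a second stress. Both comparisons use the same 4 control arrays, so their values are not independent, and all 12 arrays were normalized together for it. The brain hypoxia array was on another scale, for which reason hypoxia was kept out of the main fit. The part of this in the hypoxia values of brain, and in the medians that include them, was not tested. The list's median was 0.39 for fragmentation and 0.13 for hypoxia, with 22 and 16 of 24 members higher. Ddit4 differed by 0.20 in brain, 1.56 in heart, 1.29 in lung and 1.59 in muscle with hypoxia, and Fkbp5 by 0.80, 1.38, 1.24 and -0.11. Both were thus also higher with hypoxia in heart and lung. Mt1 differed by -0.73, 0.05, 0.35 and -0.58 with hypoxia, and Nfkbia by 0.28, 0.27, 0.34 and -0.38. Sult1a1 was higher with hypoxia in all 4 tissues, by 0.09, 0.65, 0.69 and 0.36. Zbtb16 differed by 0.73, 1.15, 1.13 and -0.24 with hypoxia, and Sgk1 by 1.30, 0.66, 0.12 and 0.08, both with a higher mean than with fragmentation.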

How the data were processed

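RNA of mouse tissue was hybridised to short-oligonucleotide arrays of 12488 probe sets, 1 array per tissue and condition. What the authors deposited is linear intensity, which they had scaled so that the mean without the lowest and highest 2% was 800 on each of the 8 arrays; the probe summary method is not given in the labels used here. The 8 arrays were quantile normalized together, and log2 was taken after adding 87.1, the 20th percentile of positive values. For arrays no count lies behind a value, and their number limits the precision.

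Of 12422 probe sets that are not controls, 10833 have 1 gene symbol, 396 several and 1193 none; only the first were named. Those with the highest tissue mean above the 40th percentile, 7453, entered a two-sided moderated test in limma 3.58.1 (lmFit, then eBayes; R 4.3.3), with tissue as the block that pairs the arrays, as the study's layout of 1 array per tissue and condition gives it, and 3 residual degrees of freedom. Adjusted p-values are Benjamini-Hochberg over all 7453. For a single gene, an exact sign-flip permutation test over 4 pairs cannot go below 0.125 and was not used. A gene was represented by its brightest probe set. The fit was tested on simulated data.

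The members and the 20 pathway lists were chosen with earlier results of these data known. The small intestine and epididymis lists were added after seeing the data. Named are the 12 highest and 12 lowest genes of equal sign in all tissues by smallest unadjusted p (none passed), the 5 highest and lowest in each tissue, Ddit4, Fkbp5 and Sult1a1, the clock and glucocorticoid genes, and up to 4 genes of each other list; genes outside this rule are named where a count or another result turns on them. Alternatives changed the arrays fitted, the normalization, the value added, the filter, the variance model, the block and the tissues included.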

Additional observations from a re-analysis of the deposited data

Results flagged for a closer look

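For 10 of the 64 named genes the difference in 1 tissue stood far from those of the other 3, by Dixon's test at its 95% critical value for 4 values, which chance passes in about 1 of 20 groups. Of the genes of equal sign in all tissues, Sult1a1 differed by 1.02 in muscle, against 0.89 to 0.91 elsewhere, a range that depends on the value added before log2. Hs3st3a1 differed by 0.26 in brain, Sprr2d by -0.21 in heart and Stk10 by -0.10 in lung, each the tissue nearest to 0 for that gene. The others were named for their difference in that tissue, so the choice favours such a gap. Map2 differed by 2.49 in brain, Actc1 by 2.96 in heart, Ptdss2 by -1.82 in lung, and Retn by 3.86, Apoa1 by -4.38 and Tff3 by -3.26 in muscle.

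Of the 74 genes 2-fold or more apart in opposite directions in different tissues, 10 are among the named genes. There was 1 array on each side, and the difference between tissues was not tested. Scgb1a1 differed by 4.50 in lung and -4.45 in brain, Adam7 by 4.97 in muscle and -1.04 in lung, Acta1 by 1.51 in lung and -4.10 in brain, and Scd1 by 3.31 in muscle and -1.52 in heart. Atp2a1 differed by 2.20 in muscle and -2.44 in brain, Cox6a2 by 2.28 in heart and -1.61 in brain, and Mag by 2.08 in brain and -2.08 in heart. The other probe set of Atp2a1 read 7000 in the fragmentation muscle and 7620 in the control muscle. It gave -0.12 in muscle and -1.72 in brain. Other probe sets gave 0.05 in brain and 0.13 in heart for Mag, and 0.28 in lung and -0.03 in heart for Otub1. They gave -0.86 in muscle for Matn2, but 1.95 in muscle and -1.13 in heart for Scd1. The transcript 1810009A15Rik differed by 2.56 in heart and -1.04 in muscle, Otub1 by 1.76 in lung and -1.04 in heart, and Matn2 by 1.0 in muscle and -1.61 in lung.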

How the results depend on the processing

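Under 14 alternatives 0 probe sets passed an adjusted p of 0.05 in limma, with 4 to 626 at an unadjusted p under 0.05. The 4 came from the fit without the tissue block that pairs the arrays, where 0 of the 24 glucocorticoid genes had an unadjusted p under 0.05 in limma, while 22 were still higher. The count of 380 was 626 of 12422 with no filter and 212 of 3727 with the filter at the 70th percentile, fits with more and fewer probe sets. The glucocorticoid count of 12 ran from 4 to 11 with 1 tissue pair left out, and the list's median from 0.28 to 0.44 over all alternatives. With the lung pair left out, Sult1a1 no longer passed the filter on low intensity. Leaving out the brain and muscle pairs was chosen after seeing the data and left 1 residual degree of freedom. The 338 values of 26 named genes under the alternatives kept their sign, which the choice of genes of equal sign in all tissues partly fixes, and none passed. Counts of probe sets 2-fold apart depended on the value added before log2. With none added they were 511 in brain, 553 in heart, 297 in lung and 904 in muscle, and with 4 times the value 112, 90, 33 and 232. With no filter they were 487, 593, 271 and 1025. Of 300 medians of the 20 lists under the alternatives, 9 moved by more than their spread between tissues, among them endoplasmic reticulum stress at -0.14 without the muscle pair, the tricarboxylic acid cycle at -0.09 without the brain pair and the cell cycle at -0.27 with the filter at the 70th percentile; the other 6 are given beside their lists.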

Other observations

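Cell type genes were followed for the cells that each tissue could hold. Macrophage and monocyte genes were higher in 6 of 9 cases (median 0.15), with C1qc, a complement subunit of tissue macrophages, at 1.19 in muscle. Neutrophil and mast cell genes, 6 tested of 11 measured, were higher in 6 of 6 in the shared fit (median 0.16). By tissue it was 6 of 6 in brain, 5 in heart, 2 in lung (median -0.16) and 3 in muscle (median -0.13). Endothelial genes were lower in 7 of 10 (median -0.08), with Pecam1, an adhesion molecule of vessel walls, at -0.40 ± 0.17 and Cdh5, their cadherin, at -1.07 in muscle and 0.51 in lung. B cell genes were higher in 3 of 7 (median -0.01), T cell genes in 1 of 3 (-0.04), smooth muscle genes in 4 of 6 (0.10) and brown adipocyte genes in 1 of 4 (-0.11). None of these had an unadjusted p under 0.05 in limma, and none passed after adjustment.

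Pituitary genes were higher in 5 of 5 cases in the shared fit (median 0.40). By tissue it was 5 of 5 in brain, 5 in heart, 3 in lung (median 0.03) and 2 in muscle (median -0.15). In brain the whole list, 7 of 7 measured, summed to 16870 with fragmentation and 4229 in control. Pomc, the precursor of corticotropin, read 1180 in the fragmentation brain and 526 in the control brain, and 671 in the fragmentation heart and 119 in the control heart. Prl, prolactin, read 1830 in the fragmentation brain and 829 in the control brain. How much pituitary each brain sample held was not tested.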
